A study of Mus musculus with 16 samples.

Results

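The unfolded protein response and the integrated stress response were followed through a list of 39 genes in sorted mouse myeloid progenitors. Of these, 38 were measured, out of 22180 genes with a probe set that names a single gene. The exception was Pdia4, a protein disulfide isomerase, whose probe set carries several gene symbols. For a gene with several probe sets the one with the highest mean over the 16 arrays was taken. The members are 3 stress sensors, 5 transcription factors, 11 chaperones and co-chaperones of the endoplasmic reticulum (ER), 2 measured disulfide isomerases, 8 genes of ER-associated degradation and translocation, 4 feedback genes and effectors, and 5 genes of amino acid and folate metabolism.

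The arrays hold RNA from bone marrow of wild-type C57BL/6 mice. Common myeloid progenitors (CMPs, intermediate for CD16/32 and negative for CD115), granulocyte-monocyte progenitors (GMPs, high for CD16/32 and negative for CD115) and the monocyte-committed progenitors called cMoPs (with CD115 and Ly6C on the surface) were sorted. All 3 populations were negative for lineage markers, Sca-1 and CD105 and positive for c-Kit. For 3 weeks the mice drank water with 2% sucrose, either alone (control) or with ampicillin, metronidazole, neomycin and vancomycin at 1 g/L each (antibiotics). There were 3 control and 3 antibiotic arrays of CMPs, 2 control and 3 antibiotic arrays of GMPs, and 2 control and 3 antibiotic arrays of cMoPs, each from 2.6 ng of amplified RNA. The labels do not say whether an array is 1 mouse or a pool, or whether progenitors came from the same animals, so a p-value reflects only how far these arrays scatter, which may be technical. Neither age nor sex is given in the sources used here. Among 7 genes of the sort gate, mean log2 signal of Fcgr3, which encodes a CD16/32 receptor, was 6.65 to 6.68 in the CMP groups and 9.28 to 9.81 in the other groups, and that of Csf1r, which encodes CD115, was 9.29 to 9.39 in the cMoP groups and 6.52 to 7.61 elsewhere. Kit, which encodes c-Kit, was at 9.32 to 10.56 in all groups, and Ly6c2, which encodes Ly6C, at no more than 10.57 in the CMP groups and 12.52 to 12.72 elsewhere. Eng, which encodes CD105, was at 8.50 and 8.17 in the CMP groups, above the upper quartile of every array (6.24 to 6.41), and at 6.41 to 7.22 elsewhere, although all populations were sorted as negative for CD105. Ly6c1 was at 2.73 to 4.56 and Cd34 at 10.09 to 10.72.

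Proteins that fold in the ER are watched by the sensors IRE1 (encoded by Ern1), PERK (Eif2ak3) and ATF6. IRE1 splices the RNA of the transcription factor Xbp1, ATF6 is cleaved to release a transcription factor, and both raise chaperones and degradation factors, whereas PERK phosphorylates the translation factor eIF2 and thereby favours translation of Atf4. Phosphorylation of eIF2 by PERK or by kinases that sense amino acid shortage, heme or double-stranded RNA is shared by all branches of the integrated stress response, and ATF4 raises Ddit3, Trib3, Chac1 and genes of amino acid supply. Developing granulocytes and monocytes make large amounts of secretory and granule protein, which passes through the ER. The arrays read the amount of RNA per gene and show neither splicing of Xbp1 nor phosphorylation or cleavage of any protein.

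The promoters of the members were searched for the sequence elements of these branches. The list was made of genes of these branches, so a higher share of an element among them is no independent finding. RefSeq promoter windows (GRCm38.p6, 250 bases before to 50 bases after the start of the gene, both strands searched) were matched for 34 of the 38 measured members. The ER stress response element, CCAAT followed by 9 bases of any kind and CCACG, was present in the windows of 9 of these 34 members (26.5%) and of 37 of 27025 genes in all (0.137%). The 9 members are Hspa5, Hsp90b1, Calr, Canx, Creld2, Dnajc3, Pdia6, Syvn1 and Derl3. The CCACG part alone, which every full element contains, was present in 76.5% of the members and in 35.5% of all genes. The following stretches upstream of the start are shown because they hold the element in promoters of chaperones, an isomerase and a degradation gene that were higher outside CMPs. Capitals mark the fixed bases of the ER stress response element, or of its reverse complement.
Hspa5 (chr2:34772005-34772063, plus strand): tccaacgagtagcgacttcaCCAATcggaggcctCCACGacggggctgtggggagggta
Pdia6 (chr12:17266471-17266529, plus strand): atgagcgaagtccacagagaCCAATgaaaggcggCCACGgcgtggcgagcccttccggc
Dnajc3 (chr14:118937807-118937865, plus strand): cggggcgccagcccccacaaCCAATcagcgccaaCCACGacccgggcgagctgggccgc
Syvn1 (chr19:6046512-6046570, plus strand): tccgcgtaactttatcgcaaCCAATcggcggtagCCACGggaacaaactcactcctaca
Creld2 (chr15:88819500-88819558, plus strand): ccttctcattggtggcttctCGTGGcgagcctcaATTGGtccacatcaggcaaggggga
Hsp90b1 (chr10:86705513-86705676, minus strand): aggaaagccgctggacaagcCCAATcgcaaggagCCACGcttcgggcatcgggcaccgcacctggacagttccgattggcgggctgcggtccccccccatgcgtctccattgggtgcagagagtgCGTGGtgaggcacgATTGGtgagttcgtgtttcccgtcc

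The element of Hspa5 spans bases -65 to -47 from the start and that of Pdia6 bases -98 to -80. Hsp90b1 holds 2 elements, at -212 to -194 and, in the opposite orientation, at -107 to -89. Hspa5 was also the 1 member with the core of the unfolded protein response element, TGACGTG, which 2.22% of all genes had. The C/EBP-ATF element bound by ATF4, searched as TGATGNAA, was present in 5 of the 34 members (14.7%: Atf3, Herpud1, Trib3, Chac1 and Asns) and in 4.51% of all genes. In the next stretches capitals mark this element, read on the opposite strand in Chac1.
Asns (chr6:7693210-7693252, minus strand): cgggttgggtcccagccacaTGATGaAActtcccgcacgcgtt
Chac1 (chr2:119351029-119351076, plus strand): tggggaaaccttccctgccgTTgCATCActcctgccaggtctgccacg
A match describes the letters of a window and does not show that a factor binds there.

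GMPs and cMoPs had more RNA of ER folding genes than CMPs. Between GMPs and CMPs, averaged over both waters, 26 of the 38 members passed the test (limma, Benjamini-Hochberg adjusted p under 0.05 over all genes), where 16% of the 22180 genes did. Of these, 24 were higher in GMPs, where 7.87% of all genes were, and 2 were lower (Asns and Ppp1r15a), where 8.17% of all genes were. Between cMoPs and CMPs, 29 members passed against 18.9% of all genes. Here 26 were higher in cMoPs (9.72% of all genes) and 3 were lower, namely Asns, Ppp1r15a and Ddit3 (9.2% of all genes). The median difference over the 38 members was 0.54 on the log2 scale for GMPs minus CMPs and 0.53 for cMoPs minus CMPs, beside 0.02 and 0.04 over all genes. The members are mostly bright, and brighter genes passed more often: among the 11088 genes above the median brightness, 33.2% and 38% passed in these comparisons. The 2 comparisons share the CMP arrays.

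Between cMoPs and GMPs no member passed the limma test, where 5.42% of all genes did. Unadjusted p was under 0.05 for 5 members, and the count was also 0 with unmoderated variances. Differences ran from -0.46 (Dnajb9, SE 0.16) to 0.56 (Sesn2, SE 0.29), with a median of 0.03, and the test does not show that the 2 populations were alike. The members nearest to a call were Shmt2 (0.37 ± 0.11, adjusted p = 0.0576) and Asns (-0.38 ± 0.12, adjusted p = 0.0768). Both passed when only genes above the median brightness were tested (adjusted p = 0.0248 and 0.0363), where 12.7% of these genes did. Shmt2 passed without the third antibiotic array of GMPs (adjusted p = 0.0456) and Asns without the second (adjusted p = 0.0116), and over the antibiotic arrays alone Asns was lower in cMoPs by a difference of -0.70 (adjusted p = 0.012).

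All 3 sensors were higher in GMPs and in cMoPs than in CMPs. Ern1, the sensor and nuclease IRE1, had a log2 signal of 7.54, 8.16 and 7.75 in control CMPs and 7.90, 7.97 and 7.74 in antibiotic CMPs. It was at 8.95 and 8.78 in control GMPs and 8.74, 8.69 and 8.74 in antibiotic GMPs, and at 8.62 and 8.70 in control cMoPs and 8.49, 8.44 and 8.47 in antibiotic cMoPs. Every GMP and cMoP array lay above every CMP array. The difference was 0.95 ± 0.11 for GMPs minus CMPs (SE, 1.93-fold, adjusted p = 6.77e-06) and 0.72 ± 0.11 for cMoPs minus CMPs (1.65-fold, adjusted p = 0.000101).

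Eif2ak3, the eIF2 kinase PERK, was at 5.84, 5.66 and 5.81 in control CMPs and 5.52, 5.64 and 5.90 in antibiotic CMPs. Its values were 6.42 and 6.22 in control GMPs, 6.32, 6.46 and 6.26 in antibiotic GMPs, 6.62 and 6.57 in control cMoPs, and 6.78, 6.41 and 6.30 in antibiotic cMoPs. The GMP and cMoP arrays again lay above all CMP arrays, by 0.60 ± 0.11 (adjusted p = 0.00074) and 0.82 ± 0.11 (adjusted p = 3.25e-05). Atf6, the sensor that is itself a membrane-bound transcription factor, was at 7.39, 7.81 and 7.66 in control CMPs and 7.60, 7.97 and 7.33 in antibiotic CMPs. It was at 8.25 and 8.23 in control GMPs, 8.24, 8.23 and 7.98 in antibiotic GMPs, 8.44 and 8.70 in control cMoPs, and 8.48, 8.43 and 8.36 in antibiotic cMoPs. The lowest GMP array was just above the highest CMP array, and the differences were 0.57 ± 0.12 (adjusted p = 0.00319) and 0.87 ± 0.12 (adjusted p = 5.49e-05). Over the antibiotic arrays alone, Atf6 in GMPs missed the threshold (0.52, adjusted p = 0.0513).

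**Figure D1:**
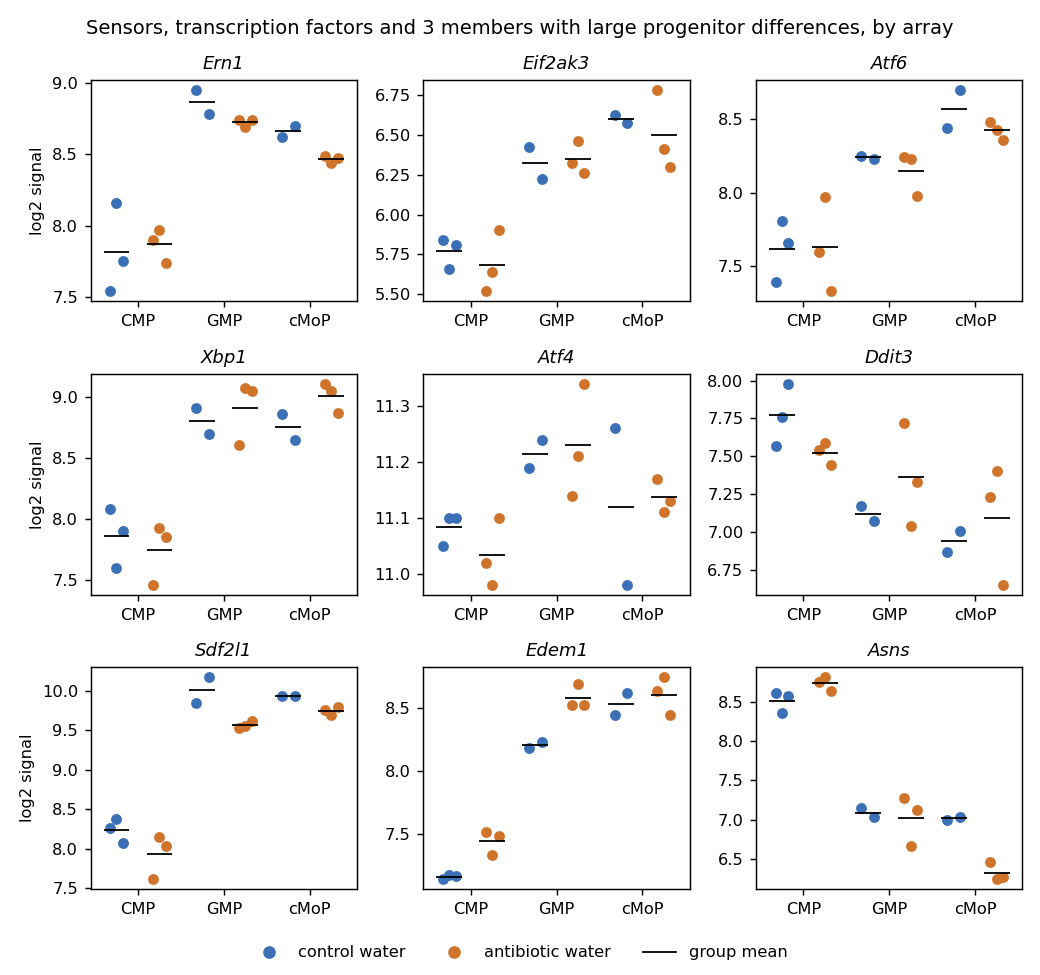
Log2 signal (y axis) of 9 members on each of the 16 arrays, grouped by progenitor on the x axis, with control water in blue, antibiotic water in orange and a black line at each group mean; y axes differ between panels and do not start at 0. Ern1, Eif2ak3, Atf6, Xbp1, Sdf2l1 and Edem1 lie higher on every GMP and cMoP array than on any CMP array, Asns lies lower, and Atf4 spans only 10.98 to 11.34.

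Among the transcription factors, Xbp1 was higher outside CMPs and Atf4 did not pass the test. Xbp1, the factor made active by IRE1, was at 8.08, 7.60 and 7.90 in control CMPs and 7.46, 7.93 and 7.85 in antibiotic CMPs. It was at 8.91 and 8.70 in control GMPs, 8.61, 9.07 and 9.05 in antibiotic GMPs, 8.86 and 8.65 in control cMoPs, and 9.11, 9.05 and 8.87 in antibiotic cMoPs. CMP arrays did not overlap with the others, and the difference was 1.05 ± 0.13 in GMPs (2.08-fold, adjusted p = 1.63e-05) and 1.08 ± 0.13 in cMoPs (2.11-fold, adjusted p = 1.03e-05).

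Atf4, the factor whose translation rises when eIF2 is phosphorylated, was at 11.05, 11.10 and 11.10 in control CMPs and 11.02, 10.98 and 11.10 in antibiotic CMPs. It was at 11.19 and 11.24 in control GMPs, 11.14, 11.21 and 11.34 in antibiotic GMPs, 11.26 and 10.98 in control cMoPs, and 11.17, 11.11 and 11.13 in antibiotic cMoPs. All GMP arrays lay just above the CMP arrays, whereas cMoP arrays overlapped with them. Neither difference passed the test (0.16 ± 0.08, adjusted p = 0.228, and 0.07 ± 0.08, adjusted p = 0.641), though that in GMPs did with trended and robust variances in limma (adjusted p = 0.041). Ddit3, which encodes CHOP and is a target of ATF4, went the other way: 7.57, 7.76 and 7.98 in control CMPs, 7.54, 7.59 and 7.44 in antibiotic CMPs, 7.17 and 7.07 in control GMPs, and 7.72, 7.04 and 7.33 in antibiotic GMPs. In cMoPs it was at 6.87 and 7.01 with control water and at 7.23, 7.40 and 6.65 with antibiotics, all below the CMP arrays. The difference was -0.63 ± 0.15 in cMoPs (adjusted p = 0.00514) and -0.41 ± 0.15 in GMPs, which did not pass (adjusted p = 0.0748) but did without the first antibiotic array of GMPs (0.0267) or the third antibiotic array of cMoPs (0.0356). Over the antibiotic arrays alone, the difference in cMoPs did not pass (-0.43, adjusted p = 0.192). Atf5, another factor of the eIF2 branch, was higher in cMoPs by 0.50 ± 0.14 (adjusted p = 0.0188), which did not hold without the first (0.0645) or the second (0.0509) control array of cMoPs. In GMPs Atf5 differed by 0.40 ± 0.14 (adjusted p = 0.0682) and passed without the first control array of CMPs (0.0203) or the third antibiotic array of GMPs (0.036). Atf3, a stress-induced factor, did not pass (0.24 ± 0.14 and 0.33 ± 0.14).

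Of the 11 chaperones and co-chaperones, 10 were higher in GMPs and 9 in cMoPs than in CMPs, with median differences of 0.64 and 0.65. Sdf2l1, a luminal partner of ER chaperone complexes, differed most: it was at 8.26, 8.38 and 8.08 in control CMPs and 7.62, 8.15 and 8.03 in antibiotic CMPs. It was at 9.84 and 10.17 in control GMPs, 9.53, 9.56 and 9.62 in antibiotic GMPs, 9.93 and 9.93 in control cMoPs, and 9.76, 9.69 and 9.80 in antibiotic cMoPs. The gap between the CMP arrays and the rest exceeded the spread within any group, at 1.70 ± 0.11 for GMPs (3.25-fold, adjusted p = 1.08e-08) and 1.75 ± 0.11 for cMoPs (3.37-fold, adjusted p = 6.24e-09).

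Hyou1, the nucleotide exchange factor of the ER chaperone BiP, followed with 1.04 ± 0.10 (adjusted p = 1.49e-06) and 0.97 ± 0.10 (adjusted p = 2.7e-06). BiP itself, encoded by Hspa5 and carrying the element shown above, was 1.64-fold higher in GMPs (0.71 ± 0.10) and 1.57-fold higher in cMoPs (0.65 ± 0.10). Its co-chaperones Dnajc3 (0.85 and 0.80) and Dnajb11 (0.59 and 0.76) were higher in both, as were the stress-induced ER proteins Creld2 (0.83 and 0.88) and Manf (0.63 and 0.56), the ER form of Hsp90 encoded by Hsp90b1 (0.45 and 0.52) and the lectin chaperone Calr (0.64 and 0.54). Canx, the membrane-bound relative of Calr, did not pass (0.14 ± 0.08 and 0.13 ± 0.08), although its promoter holds the ER stress response element. With trended and robust variances in limma it did pass (adjusted p = 0.024 and 0.0283). Dnajb9, a BiP co-chaperone, was higher in GMPs by 0.55 ± 0.16 (adjusted p = 0.0236) and not detectably different in cMoPs (0.09 ± 0.16). The GMP call on Dnajb9 was lost without CMP control array 1 (0.0558), CMP antibiotic array 2 (0.0618), GMP control array 1 (0.151) or GMP antibiotic array 2 (0.0535).

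Both measured disulfide isomerases, which form and rearrange disulfide bonds, were higher in GMPs and cMoPs. Pdia6 differed by 0.87 ± 0.09 (1.83-fold) and 0.95 ± 0.09 (1.93-fold), and Pdia3, which works with the lectin chaperones, by 0.60 ± 0.09 (1.52-fold) and 0.66 ± 0.09 (1.58-fold).

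In ER-associated degradation and translocation, 7 of 8 members were higher in GMPs and 7 of 8 in cMoPs. Edem1, which draws misfolded glycoproteins from the folding cycle, was at 7.14, 7.17 and 7.16 in control CMPs and 7.51, 7.33 and 7.48 in antibiotic CMPs. It was at 8.18 and 8.23 in control GMPs, 8.52, 8.69 and 8.52 in antibiotic GMPs, 8.44 and 8.62 in control cMoPs, and 8.63, 8.74 and 8.44 in antibiotic cMoPs. No CMP array came near the others, and the differences were 1.09 ± 0.09 (2.13-fold, adjusted p = 1.67e-07) and 1.27 ± 0.09 (2.41-fold, adjusted p = 2.31e-08). A further probe set of Edem1 gave 1.39 ± 0.13 and 1.46 ± 0.13.

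Sel1l, the scaffold of the main ubiquitin ligase complex, differed by 0.70 ± 0.13 and 0.80 ± 0.13, Herpud1, which recruits substrates to it, by 0.60 ± 0.13 in both, and the membrane proteins Derl2 and Derl3 by 0.50 and 0.67 in GMPs and 0.59 and 0.53 in cMoPs. Derl1, of the same family, did not pass (-0.15 ± 0.10 and 0.01 ± 0.10). The calls on Syvn1, the ligase of that complex (0.41 ± 0.13, adjusted p = 0.0421, and 0.42 ± 0.13, adjusted p = 0.0345), and on Sec61b, a translocon subunit (0.40 ± 0.12, adjusted p = 0.0346, and 0.37 ± 0.12, adjusted p = 0.0492), were near the threshold. Syvn1 in GMPs was lost without CMP control array 2 (0.0983) or 3 (0.0795), CMP antibiotic array 1 (0.0814) or 3 (0.087), GMP control array 2 (0.219), GMP antibiotic array 1 (0.0717) or 2 (0.103), or cMoP antibiotic array 1 (0.0543), 2 (0.0534) or 3 (0.0531). In cMoPs it was lost without the same CMP arrays (0.0837, 0.067, 0.0681 and 0.0726), cMoP control array 1 (0.19), or cMoP antibiotic array 1 (0.0553), 2 (0.0591) or 3 (0.0644). Sec61b in GMPs was lost without CMP control array 1 (0.0789) or 2 (0.0624), CMP antibiotic array 1 (0.0665) or 2 (0.0847), GMP control array 1 (0.113) or 2 (0.0745), or GMP antibiotic array 1 (0.0527) or 3 (0.0835). In cMoPs it was lost without 13 of the 16 arrays, all but CMP control array 3, CMP antibiotic array 3 and cMoP control array 1 (adjusted p 0.0501 to 0.247). A dimmer probe set of Sec61b gave larger differences (0.65 ± 0.15 and 0.72 ± 0.15), and a further one of Derl2 gave smaller differences (0.35 ± 0.09 and 0.45 ± 0.09).

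The output of the eIF2 branch was mixed. Among the 4 feedback genes and effectors, Ppp1r15a, which encodes the eIF2 phosphatase subunit GADD34, was lower in GMPs (-0.89 ± 0.18, adjusted p = 0.00252) and in cMoPs (-0.74 ± 0.18, adjusted p = 0.00829, and 0.0643 without the second control array of cMoPs). Chac1, which degrades glutathione, was higher by 0.53 ± 0.14 (adjusted p = 0.0148) and 0.48 ± 0.14 (adjusted p = 0.022), and its promoter stretch is shown above. Its group means ran from 3.43 in control CMPs to 4.2 in control GMPs, beside array medians of 4.04 to 4.17. Such values may lie near background. The Chac1 call was lost in GMPs without GMP control array 1 (0.108), and in cMoPs without CMP control array 2 (0.0566), CMP antibiotic array 1 (0.0581) or cMoP control array 1 (0.121). Over the antibiotic arrays alone the Chac1 differences were 0.29 and 0.22 and did not pass. Trib3, a pseudokinase that restrains ATF4, and Sesn2, a stress-induced inhibitor of growth signalling, did not pass in either comparison.

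Asns, asparagine synthetase and a standard ATF4 target, was lower outside CMPs, and in cMoPs it had the largest difference of all members. It was at 8.61, 8.36 and 8.57 in control CMPs and 8.75, 8.81 and 8.64 in antibiotic CMPs. It was at 7.15 and 7.03 in control GMPs, 7.28, 6.67 and 7.13 in antibiotic GMPs, 7.0 and 7.04 in control cMoPs, and 6.47, 6.25 and 6.27 in antibiotic cMoPs. All CMP arrays lay more than 1 log2 unit above all others, with differences of -1.57 ± 0.11 for GMPs (adjusted p = 3.89e-08) and -1.95 ± 0.11 for cMoPs (adjusted p = 2.51e-09), so that CMPs had 2.96 and 3.86 times the signal. Psat1 and Phgdh, enzymes of serine synthesis that ATF4 also raises, did not pass (0.13 ± 0.09 and 0.04 ± 0.17 in GMPs, 0.17 ± 0.09 and -0.05 ± 0.17 in cMoPs). The mitochondrial folate enzymes Mthfd2 (0.60 ± 0.14, adjusted p = 0.00613) and Shmt2 (0.36 ± 0.10, adjusted p = 0.0182) were higher in cMoPs. The Mthfd2 call was lost without the first control array of cMoPs (0.056) and the Shmt2 call without the second (0.0602).

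With the arrays of 1 water alone fewer calls were made, over all genes too: 1786 with control and 2426 with antibiotic arrays between GMPs and CMPs, in place of 3558. Over the control arrays the GMP calls on Sel1l (0.59, adjusted p = 0.0755), Herpud1 (0.64, 0.0574) and Ppp1r15a (-0.89, 0.0575) did not pass, nor did the cMoP calls on Derl3 (0.34, 0.286), Mthfd2 (0.43, 0.249) and Ppp1r15a (-0.56, 0.245). Over the antibiotic arrays Derl2 in GMPs (0.42, 0.0633) and Herpud1 in cMoPs (0.54, 0.0533) did not pass. Syvn1, Dnajb9 and Sec61b in GMPs and Syvn1, Atf5 and Shmt2 in cMoPs passed over neither water alone, and Sec61b in cMoPs did not pass over the control arrays (0.20, 0.584). All of these differences kept their sign.

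**Figure D2:**
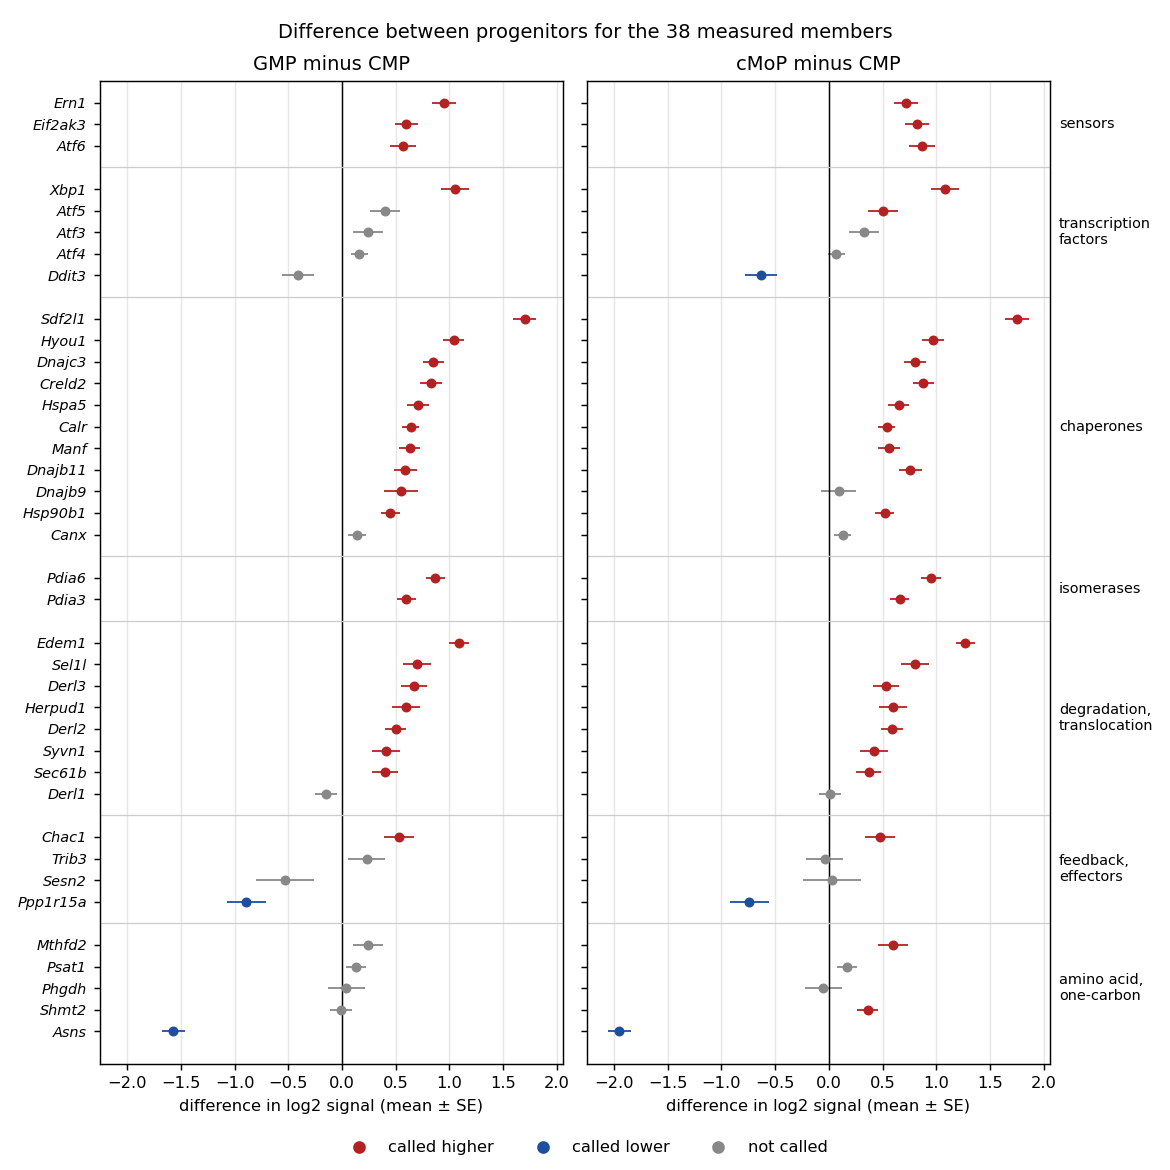
Difference in log2 signal (x axis, mean ± SE from the limma fit) of the 38 measured members, ordered by role, for GMPs minus CMPs and cMoPs minus CMPs; red points passed as higher, blue as lower and grey did not pass. Sensors, chaperones, isomerases and degradation genes lie mostly to the right of 0, from 0.37 to 1.75 where they passed, and Asns lies farthest to the left at -1.57 and -1.95.

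Members with the ER stress response element and members without it can be set side by side. Of the 9 members with the element, 8 were higher in GMPs and the same number in cMoPs (median differences 0.67 and 0.54). Of the 25 members with a promoter window and no element, 13 were higher and 2 lower in GMPs, and 15 were higher and 3 lower in cMoPs (median differences 0.40 and 0.48). Of 20 measured genes outside the list whose window holds the element, 2 were higher in GMPs and 2 in cMoPs, which is 10% beside 8.12% and 10.2% of all genes with a window. Of the 5 members with the C/EBP-ATF element, Herpud1 and Chac1 were higher and Asns was lower in both comparisons.

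Other genes of the pathway were read from 9 lists with 106 measured genes of 118. Of the 106, 34% passed between GMPs and CMPs and 39.6% between cMoPs and CMPs. The shares were 16% and 18.9% of all genes, and 33.2% and 38% of genes above the median brightness. In the ER, further folding genes were higher in 10 of 14 cases in GMPs and 13 of 14 in cMoPs (medians 0.80 and 0.83). Fkbp11, a prolyl isomerase of the secretory pathway, differed by 1.69 in GMPs, Ero1b, an oxidase that recharges disulfide isomerases, by 1.31 in GMPs and 1.54 in cMoPs, and the isomerase Pdia5 by 1.42 in cMoPs. In this list 2 genes passed between cMoPs and GMPs: Txndc5, an isomerase, was higher by 1.30 ± 0.13 (adjusted p = 9.18e-06) and Dnajc10, a disulfide reductase, by 0.60 ± 0.09 (adjusted p = 0.000638). Translocon and signal peptidase genes were higher in 8 of 15 and 9 of 15 cases, with Ssr4, a translocon-associated subunit, at 0.74 and 0.60. Among further degradation genes, 3 of 9 were higher in each comparison, led by Selenos (0.92 and 1.04) and Edem2 (0.82 and 0.75).

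Genes on the eIF2 side moved in both directions, as did all genes. Of all genes, 7.87% were higher and 8.17% lower in GMPs, and 9.72% and 9.2% in cMoPs. Between cMoPs and GMPs 5.42% of all genes passed. In GMPs 25% of the first list below, 38.9% of the ATF4 targets and 18.2% of the synthetases passed, beside 33.2% of genes above the median brightness. In the list of other eIF2 kinases, eIF2B subunits and translation regulators, 1 of 12 was higher and 2 were lower in GMPs, and 1 was higher and 3 were lower in cMoPs. The higher one was Cebpb, a myeloid transcription factor that also dimerises with ATF4 (1.32 and 1.69). The lower ones included Eif4ebp1, an inhibitor of cap-dependent translation (-0.46 and -0.48), and, in cMoPs, the double-stranded RNA kinase gene Eif2ak2 (-0.56). Between cMoPs and GMPs 2 genes of this list were higher and 1 lower, among them Cebpg, a partner of ATF4 (0.42), and the amino acid sensor kinase gene Eif2ak4 (-0.45). Of 18 further ATF4 targets, 3 were higher and 4 lower in GMPs, and 1 was higher and 5 lower in cMoPs. Ddit4, an inhibitor of growth signalling, was at -1.47 and -1.31, and Nupr1, a stress-induced chromatin protein, at -1.03 and -0.98. Of 11 transfer RNA synthetases, 1 was higher and 1 lower in GMPs (Nars 0.34 and Gars -0.40) and none passed in cMoPs, where 2 had an unadjusted limma p under 0.05. Among 8 factors processed like ATF6 or proteases that process them, Atf6b was higher in both comparisons (0.54 and 0.72) and Creb3 in cMoPs (0.52).

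Markers of other programmes moved with the same comparisons. All 7 genes of the primary granule programme (granule proteins such as Elane and Mpo, and the transcription factors Cebpe and Gfi1) were higher in GMPs and in cMoPs, with medians of 2.38 and 1.55. Their mean log2 signal per array was 8.59 to 9.61 in CMPs, 11.38 to 11.55 in GMPs and 10.63 to 10.85 in cMoPs. All 7 megakaryocyte and erythroid genes were lower (medians -2.27 and -3.81), at 8.66 to 8.92 per array in CMPs, 5.77 to 6.46 in GMPs and 4.75 to 5.00 in cMoPs. Of 6 mast cell, basophil and eosinophil genes, 5 were higher in GMPs (median 1.61) and 2 were lower in cMoPs (median -0.66), with array means of 6.62 to 7.36 in CMPs, 8.80 to 9.29 in GMPs and 5.38 to 5.65 in cMoPs. Of 6 monocyte genes, 3 were higher in GMPs (median 0.53) and 6 in cMoPs (median 2.31), with array means of 6.68 to 7.49 in CMPs, 7.40 to 8.13 in GMPs and 9.60 to 9.80 in cMoPs. Of 7 late neutrophil genes, 4 were lower and 1 higher in GMPs and 5 were lower in cMoPs, with array means of 8.91 to 9.44 in CMPs, 8.78 to 8.89 in GMPs and 8.57 to 8.79 in cMoPs. In bulk samples fewer cells of a type and less RNA per cell cannot be told apart. Plasma cells also have a large ER. Of 7 markers of B and plasma cells, 1 was higher and 1 lower in GMPs, and 1 was higher and 2 lower in cMoPs. Cd79b, a subunit of the B cell receptor, was the higher one (0.80 and 0.83). Their array means were 4.52 to 5.18 in CMPs, 4.46 to 4.75 in GMPs and 4.56 to 4.71 in cMoPs. The part of these markers in the differences of the stress response genes was not tested.

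A chaperone cofactor and a disulfide isomerase were lower with antibiotics, and most other chaperones had lower values that did not pass. Averaged over the 3 progenitors, 2 of the 38 members passed the rate of 0.2 that the study states for this comparison, both lower, where 0.514% of all genes passed and 0.243% were lower. These were Hyou1 and Pdia6. Of the 11088 genes above the median brightness, tested alone, 3.18% passed. The median difference over the members was -0.06 beside -0.01 over all genes, 27 of 38 were below 0 (71.1%, beside 54.2% of all genes), and 9 had an unadjusted limma p under 0.05 (beside 2115 of the 22180 genes). The 106 other pathway genes had the same median of -0.06 and 65.1% below 0. The share of all genes called moved with single arrays: it was 1.21% without cMoP control array 2, and 0.185% without CMP antibiotic array 1 or cMoP antibiotic array 1.

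Hyou1 was at 8.90, 8.49 and 8.64 in control CMPs against 8.13, 8.40 and 8.47 after antibiotics. It was at 9.67 and 9.87 against 9.20, 9.43 and 9.33 in GMPs and at 9.61 and 9.65 against 9.39, 9.27 and 9.28 in cMoPs. The waters did not overlap in any progenitor, with all antibiotic arrays on the lower side. These are the arrays that gave the call, so this adds no support to it. The share of all genes that separate in this way was not counted. The mean difference was -0.37 ± 0.08 (adjusted p = 0.16), and control arrays had 1.29 times the signal. Within progenitors it was -0.34 ± 0.13, -0.45 ± 0.15 and -0.32 ± 0.15, none of which passed. The call was lost without CMP control array 1 (0.249), CMP antibiotic array 1 (0.24) or 2 (0.211), GMP control array 2 (0.296), GMP antibiotic array 1 (0.254) or 2 (0.225), cMoP control array 1 (0.312), or cMoP antibiotic array 1 (0.247), 2 (0.262) or 3 (0.209), while the difference stayed between -0.40 and -0.33.

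Pdia6 was at 9.68, 9.48 and 9.58 in control CMPs against 9.11, 9.24 and 9.41 after antibiotics. It was at 10.44 and 10.55 against 9.90, 10.14 and 10.19 in GMPs, and at 10.47 and 10.45 against 10.27, 10.22 and 10.31 in cMoPs. Here too no antibiotic array reached a control array of its progenitor, again on the arrays that gave the call. The mean difference was -0.31 ± 0.08 (adjusted p = 0.183), made of -0.33 ± 0.12, -0.42 ± 0.13 and -0.19 ± 0.13. The call was lost without CMP control array 1 (0.287) or 3 (0.239), CMP antibiotic array 1 (0.295) or 2 (0.257), GMP control array 1 (0.251) or 2 (0.307), GMP antibiotic array 1 (0.272) or 2 (0.278), cMoP control array 1 (0.362), or cMoP antibiotic array 1 (0.293), 2 (0.291) or 3 (0.219), with differences of -0.34 to -0.28.

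**Figure D3:**
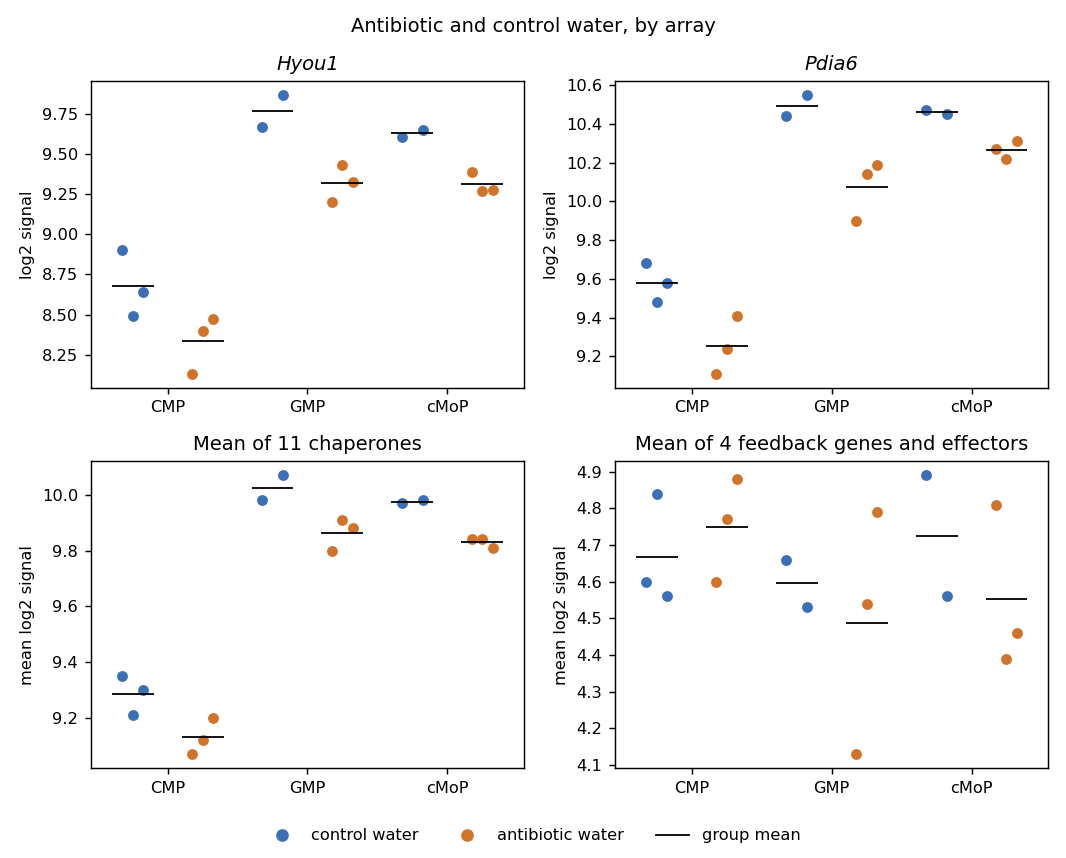
Log2 signal of Hyou1 and Pdia6 and the mean log2 signal of the 11 chaperones and of the 4 feedback genes and effectors (y axes, not starting at 0) on each array, by progenitor and water, with a line at each group mean. Antibiotic arrays lie below control arrays in each progenitor for Hyou1, Pdia6 and the chaperone mean, and overlap with them for the feedback genes and effectors.

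Most chaperones other than Hyou1 had lower values after antibiotics without passing. Of all 11, Hyou1 included, 10 had a mean difference below 0, with a median of -0.13, and 5 had an unadjusted limma p under 0.05. Their mean log2 signal was 9.21 to 9.35 in control and 9.07 to 9.20 in antibiotic CMPs, 9.98 to 10.07 and 9.80 to 9.91 in GMPs, and 9.97 to 9.98 and 9.81 to 9.84 in cMoPs. The waters thus did not overlap in any progenitor for this mean, which includes Hyou1, though CMP arrays came as near as 9.20 and 9.21. How often other lists separate in this way was not counted. Sdf2l1 (-0.31 ± 0.09, adjusted p = 0.277), Hspa5 (-0.23 ± 0.09, 0.395), Dnajb11 (-0.23 ± 0.09, 0.445) and Calr (-0.21 ± 0.07, 0.331) came next, and Dnajb9 was the 1 chaperone above 0 (0.12 ± 0.13). Pdia3 was at -0.15 ± 0.08.

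Among sensors and transcription factors no member passed. None of these 8 had an unadjusted p under 0.05 by limma or passed with unmoderated variances. Mean differences were -0.09 for Ern1, -0.05 for Eif2ak3, -0.07 for Atf6, 0.08 for Xbp1, -0.01 for Atf4 and 0.05 for Ddit3, with standard errors of 0.07 to 0.12. All 3 sensors were below 0, and a difference of the size of the chaperone median lay within 1 SE of each. No test compared the roles. The largest difference above 0 in the list was that of Edem1 (0.24 ± 0.07, adjusted p = 0.283), and its other probe set, about as bright, did not show it (-0.05 ± 0.11).

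**Figure D4:**
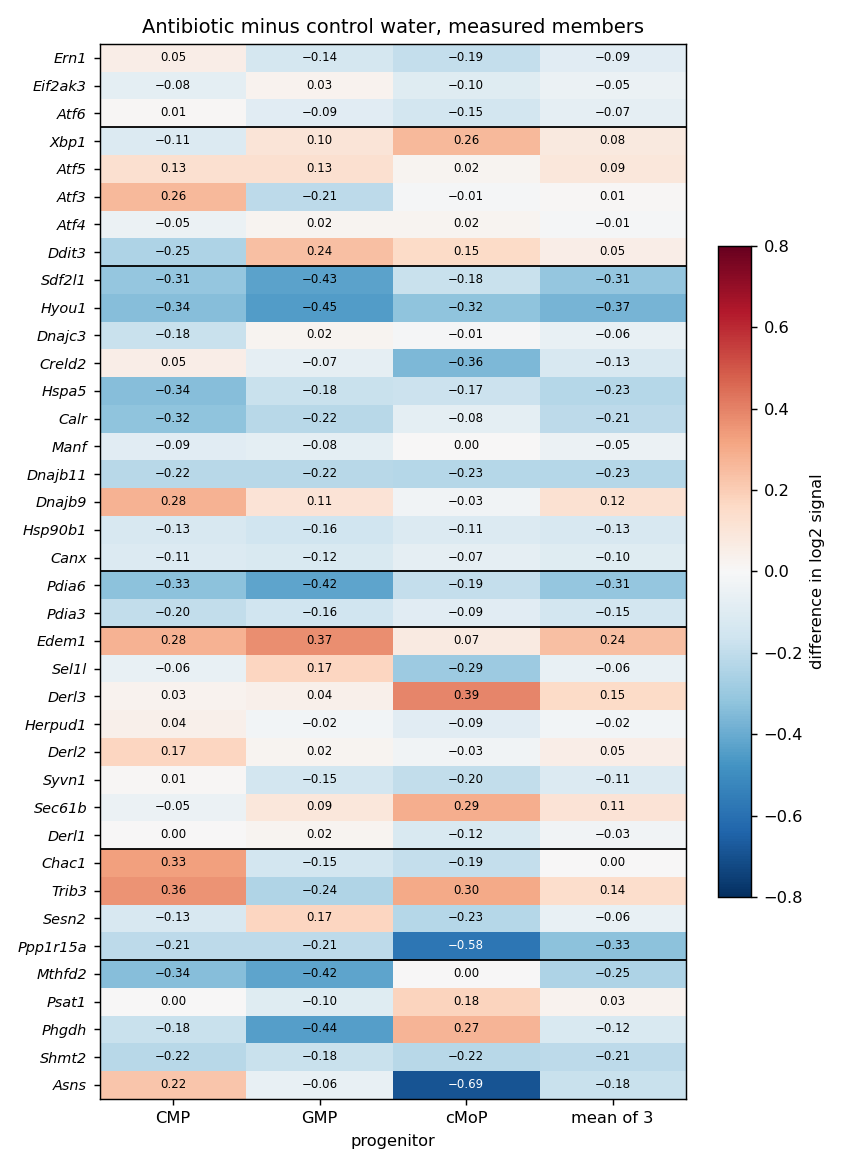
Antibiotic minus control difference in log2 signal (colour and printed value, blue lower and red higher) for the 38 measured members in rows, by progenitor and as the mean of the 3 progenitors in columns, with black lines between roles. Chaperones and isomerases are mostly blue, down to -0.45 for Hyou1 in GMPs, and the darkest cell is Asns in cMoPs at -0.69.

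Within single progenitors no member passed the limma test, where 0.0406% of all genes passed in CMPs, 0.0721% in GMPs and 0.131% in cMoPs. These shares moved with single arrays: in cMoPs 1.02% was called without cMoP control array 2 and 0.0135% without cMoP control array 1, in CMPs 0.176% without CMP antibiotic array 3 and 0.00902% without CMP antibiotic array 1, and in GMPs 0.189% without GMP antibiotic array 3 and 0.00902% without GMP antibiotic array 1 or 2. Unadjusted p was under 0.05 for 6, 4 and 3 members, and the counts were also 0 with unmoderated variances. The interaction test, which asks whether the effect of antibiotics differs between progenitors, called no member and 1 of all genes (0.00451%, and 0.108% without cMoP control array 2). The member with the smallest interaction p was Asns (limma adjusted p = 0.694). Its difference was 0.22 in CMPs, -0.06 in GMPs and -0.69 ± 0.17 in cMoPs, where the 3 antibiotic arrays (6.25 to 6.47) lay below the 2 control arrays (7.0 and 7.04). That difference in cMoPs had an adjusted p of 0.352, and of 0.154 without the second antibiotic array of GMPs.

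Other pathway genes gave 1 call with antibiotics among the 106 measured. Bag3, a co-chaperone of the cytosolic heat shock response, was lower (-0.52 ± 0.11, adjusted p = 0.129), with group means of 7.26, 7.35 and 7.70 in control and 6.79, 6.74 and 7.22 in antibiotic CMPs, GMPs and cMoPs. Of the 10 measured cytosolic heat shock genes, Bag3 included, 7 were below 0, and 3 had an unadjusted limma p under 0.05. Their median of -0.17 was as low as that of the 11 ER chaperones (-0.13) or lower. Among the 14 further ER folding genes 12 were below 0 (median -0.10) and none passed or had an unadjusted limma p under 0.05. Among the 11 transfer RNA synthetases 10 were below 0 (median -0.09), none passed, and 2 had an unadjusted limma p under 0.05. The monocyte markers moved with this comparison as well: 3 of 6 passed as lower (Cx3cr1, Ccr2 and F13a1, median of the list -0.40). Their mean log2 signal was 7.36 to 7.49 in control and 6.68 to 7.17 in antibiotic CMPs, 7.94 to 8.13 and 7.40 to 7.89 in GMPs, and 9.60 to 9.62 and 9.64 to 9.80 in cMoPs. The 7 megakaryocyte and erythroid genes, of which Car1 was higher with antibiotics (0.86 ± 0.11), had array means of 5.77 to 6.17 in control and 6.42 to 6.46 in antibiotic GMPs, and of 4.75 to 4.76 and 4.86 to 5.00 in cMoPs. In CMPs the waters overlapped, at 8.68 to 8.84 in control and 8.66 to 8.92 in antibiotic arrays. Of 6 mast cell, basophil and eosinophil genes 1 passed as higher (median -0.01), as did 1 of 5 dendritic cell genes (median 0.15). None of the 7 primary granule genes passed (median -0.04), and 2 had an unadjusted limma p under 0.05. The part of these markers in the differences of Hyou1 and Pdia6 was not tested.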

How the data were processed

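Array signal was measured in 16 samples of CMPs, GMPs and cMoPs. The authors deposited log2 values per probe set. The tools were Transcriptome Analysis Console and Partek, per the submitters' processing notes. No version, summarisation or normalization is given in the sources used here. The array medians were 4.04 to 4.17, so values were used as deposited. For arrays, their number limits the precision.

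Of 41345 probe sets, 23521 with a single symbol gave 22180 genes, each by its brightest probe set, with no filter on dim genes. The limma package (3.58.1, R 4.3.3; lmFit, eBayes) was used with 1 mean for each of 6 groups and 10 residual degrees of freedom. Tests were two-sided, adjusted by Benjamini-Hochberg over all genes, and called under 0.2 for antibiotics, as the series' design states, and under 0.05 between progenitors. Differences are equal-weight means of log2 values, errors are SE, and the fit was tested on simulated data. Replicate numbers were not used to pair the arrays in the main fit. Same-numbered arrays of the same water had correlations of deviations from -0.05 to 0.10 (median 0.03). Differently numbered arrays of the same water had -0.1 to 0.06 (median -0.02). Such correlations cannot show whether arrays shared animals.

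Members and lists were chosen with earlier results of these data known. Every array value is given for members called with antibiotics, the 3 sensors, Xbp1, Atf4, Ddit3 and the 6 members with the largest progenitor differences among those called. Other pathway genes are named where called with antibiotics or among the 2 largest called differences of their list. Promoter windows are from RefSeq and motif matches are descriptions. Alternatives changed the probe set rule, the genes tested, the variance model, the normalization, the replicate block, the model and the arrays used.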

Additional observations from a re-analysis of the deposited data

How the results depend on the processing

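Differences from CMPs were recomputed for the sensors, Xbp1, Atf4, Ddit3, Hyou1, Sdf2l1, Pdia6, Edem1 and Asns. The antibiotic difference averaged over progenitors was recomputed only for Hyou1, Pdia6, Sdf2l1, Edem1 and Hspa5. Among these, no difference that passed in the main fit or in the alternative changed sign. That of Atf4 in cMoPs, which did not pass, was 0 to 0.14 with 1 array left out. The second probe set of Edem1 taken alone gave -0.05 in place of 0.24 for antibiotics. Of 66 recomputed counts of called members that left out no array 10 moved by more than 1.5 times. The 2 calls with antibiotics averaged over progenitors (0.514% of all genes) became 0 when all 41345 probe sets were tested (0.143% of probe sets). They became 1 after quantile normalization and 4 with unmoderated variances (0.451% of all genes in each). Among genes above the median brightness there were 5 (3.18% of these genes). Trended and robust variances gave 6 (1.58% of all genes), adding Sdf2l1, Hspa5, Calr and Edem1. The share over all genes tested thus rose in the last settings too. Leaving out 1 array at a time gave 0 to 2 calls. In CMPs trended and robust variances gave 1 call (Calr, adjusted p = 0.0933), where 0.275% of all genes passed. In cMoPs leaving out 1 array gave 0 to 1. Between cMoPs and GMPs the count of 0 became 2 among the brighter genes (Asns and Shmt2), where 12.7% of these genes passed. It became 1 with trended and robust variances (6.19% of all genes) and 1 over antibiotic arrays alone (3.9%). With 1 array left out it was 0 to 1. Counts between GMPs and CMPs ranged from 20 to 28 and between cMoPs and CMPs from 22 to 30, and with 1 array left out from 23 to 26 and from 25 to 28. The interaction gave 0 throughout. With the replicate number as a block, 1 member remained called with antibiotics (Pdia6, with Hyou1 at adjusted p = 0.214). In that fit 25 were called between GMPs and CMPs and 28 between cMoPs and CMPs. The table has no detection calls, so low values such as those of Trib3, Chac1 and Atf3 may lie near background.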

Other observations

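Stress genes outside the ER were read from 2 of the 9 lists. Of 10 measured genes of the cytosolic heat shock response, 1 was lower in GMPs than in CMPs (Hsph1, a co-chaperone of Hsp70, -0.67 ± 0.13). In cMoPs Hspa4l (-0.68 ± 0.09) and Hsph1 (-0.45 ± 0.13) were lower and Bag3 (0.44 ± 0.13) was higher, and Hspa4l was also lower in cMoPs than in GMPs (-0.44 ± 0.10). Of 9 mitochondrial chaperones and proteases, Hspd1, the mitochondrial Hsp60, was lower in GMPs (-0.34 ± 0.08) and in cMoPs (-0.24 ± 0.08), and Clpx, a protease subunit, was lower in cMoPs (-0.42 ± 0.12). The median differences were -0.15 for heat shock and -0.14 for mitochondrial genes in GMPs, beside 0.54 for the members. With antibiotics the heat shock genes Hspa1a (-1.21 ± 0.49, adjusted p = 0.451) and Hsph1 (-0.34 ± 0.11, adjusted p = 0.304) did not pass.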
